A study of Mus musculus with 1 sample.

Results

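Genes of the pluripotency programme were followed in the germ cells of the fetal mouse testis. The 10 genes, *Pou5f1*, *Sox2*, *Nanog*, *Dppa2*, *Dppa3*, *Dppa4*, *Dppa5a*, *Utf1*, *Tdgf1* and *Zfp42*, were chosen by name as known members of this programme, and each was 1 row of the 22631 genes of the matrix. Values came from 1 control library of dissociated testes in which messenger RNA of single cells was captured in droplets (10x Genomics Chromium, 3 prime kit), and the library of mutant testes is not analysed here. The label of the control library reads wild type and embryonic day 14.5. The methods give the controls as *Nr5a1* L2/L2 fetuses, which carry loxP-flanked alleles of *Nr5a1* but no Cre transgene, while the text of the study adds an earlier embryonic day to 14.5. The caption of the study's map of these cells names day 14.5 alone. The text of the study counts 12 control testes over both days. Their cells were pooled, so that there was 1 sample, no replicate and no test. The animal of a cell is not known, and these sources differ on its age.

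Pluripotency is the capacity of a cell to form every tissue of the body, and in the early embryo it is held by a small circuit of transcription factors in which OCT4 (encoded by *Pou5f1*) and SOX2 bind composite octamer and SOX sites, with NANOG as a partner. Primordial germ cells express much of this circuit although they form only gametes. In the fetal testis these genes are known to be shut down as germ cells stop dividing and take on a male fate, and NODAL signalling, for which TDGF1 (also called CRIPTO) is a co-receptor, is known to be active in the germ cells for a short time in this window.

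Of the 10 genes, 6 had promoter windows in RefSeq (GRCm38.p6). The 250 bases before the start were searched on both strands for the octamer core TTTGCAT and the SOX core CATTGT. The octamer core or its complement was present in windows of *Nanog*, *Sox2* and *Zfp42*, and in 4.12% of all 32851 windows of that length. The SOX core was present in windows of *Nanog* and *Pou5f1*, and in 10.7% of all windows. For *Pou5f1* the match lay in the window of a start inside the annotated gene (chr17:35508557-35508806). Its other window, at the beginning of the gene (chr17:35505782-35506031), held neither core. The following windows are printed because they hold the octamer core, with the motifs in capitals on the strand of the gene, for *Nanog* (chr6:122707239-122707488, plus strand), *Sox2* (chr3:34649745-34649994, plus strand) and *Zfp42* (chr8:43307010-43307259, minus strand).
Nanog: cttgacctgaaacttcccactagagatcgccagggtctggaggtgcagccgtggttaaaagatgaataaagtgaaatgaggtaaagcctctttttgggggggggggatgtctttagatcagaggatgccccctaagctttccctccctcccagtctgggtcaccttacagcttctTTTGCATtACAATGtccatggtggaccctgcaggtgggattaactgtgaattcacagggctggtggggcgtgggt
Sox2: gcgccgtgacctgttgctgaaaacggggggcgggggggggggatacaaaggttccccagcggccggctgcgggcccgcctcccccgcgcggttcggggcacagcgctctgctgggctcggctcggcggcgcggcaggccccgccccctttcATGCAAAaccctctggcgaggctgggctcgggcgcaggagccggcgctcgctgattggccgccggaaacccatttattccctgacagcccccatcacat
Zfp42: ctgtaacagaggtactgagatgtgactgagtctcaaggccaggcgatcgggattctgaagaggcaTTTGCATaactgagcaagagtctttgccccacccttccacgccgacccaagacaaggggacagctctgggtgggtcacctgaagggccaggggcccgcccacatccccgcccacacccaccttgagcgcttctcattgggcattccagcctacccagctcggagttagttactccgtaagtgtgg
*Nanog* had 2 overlapping windows, both with these matches, and in the one printed the octamer core lay 75 to 69 bases and the SOX core, read on the other strand, 67 to 62 bases before the start, with 1 base between them. The octamer core lay 99 to 93 bases before the start of *Sox2*, on the other strand, and 185 to 179 bases before that of *Zfp42*. A match describes letters in these windows and says nothing of binding in these cells.

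In the GENCODE annotation of GRCm38, *Dppa4* (ENSMUSG00000058550; chromosome 16, 48283733 to 48294237) and *Dppa2* (ENSMUSG00000072419; chromosome 16, 48303908 to 48319723) are neighbours on the plus strand, with 9670 bases and no gene between them. *Dppa3* (ENSMUSG00000046323; chromosome 6, 122626410 to 122630272) and *Nanog* (ENSMUSG00000012396; chromosome 6, 122707489 to 122714633) lie 77216 bases apart with no coding gene between them. The remaining genes were *Pou5f1* (ENSMUSG00000024406; chromosome 17, 35506018 to 35510772), *Sox2* (ENSMUSG00000074637; chromosome 3, 34650405 to 34652461), *Zfp42* (ENSMUSG00000051176; chromosome 8, 43295063 to 43306980), *Utf1* (ENSMUSG00000047751; chromosome 7, 139943789 to 139945112), *Dppa5a* (ENSMUSG00000060461; chromosome 9, 78367052 to 78368177) and *Tdgf1* (ENSMUSG00000032494; chromosome 9, 110939603 to 110946158). *Sox2* lies inside the noncoding gene *Sox2ot* on the same strand, and *Pou5f1* overlaps the antisense gene *Gm19553*. Transcripts at least 95% identical over at least 200 bases were annotated for *Dppa5a* (7 other genes), *Dppa2* and *Dppa4* (2 each), and *Nanog*, *Dppa3*, *Tdgf1* and *Zfp42* (1 each), so the counts of these genes are uncertain to the extent that reads were shared with such copies. None was found for *Pou5f1*, *Sox2* or *Utf1*.

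The library held 72595083 unique molecular indices (UMIs, each standing for 1 captured molecule) in 5421 barcodes, and filters on genes, doublets and outliers kept 3812 cells, at a median of 12031 UMIs. The germ-like class was 1 cluster of 257 cells (6.74%), named from 9 germ cell markers that include *Ddx4* and *Dazl* and none of the 10 genes, which were also left out of the genes used for clustering. All 9 markers were seen, each in at least 25% of germ-like cells, where the naming required 3. Their height in the class follows in part from the naming. They made up a median of 29.3 UMIs per 10000 in germ-like cells, against a 99th percentile of 2.24 in the 3555 other cells. Among germ cell genes that did not serve for the name, 5 of 5 of a male germ cell list (*Nanos2*, *Nanos3*, *Piwil4*, *Dnmt3l* and *Tdrd5*) and 4 of 5 of a meiosis list were at least 10-fold higher in germ-like cells. So were 4.11% of the 13883 genes with at least 30 UMIs over all kept cells. *Dnmt3l* (4 UMIs in the other cells) and *Stra8* (none), for example, passed that minimum only through germ-like cells. Germ-like cells were the deepest class, with a median of 35820 UMIs against 11612 in the other cells, and the upper limit of the outlier filter, 53827 UMIs, fell within their range. Of the cells removed as outliers, 98 had at least 5 marker UMIs per 10000, a limit chosen after the values were seen, and 51 of them lay over that UMI limit. In these 98 cells each of the 10 genes was below its germ-like level given further on. *Pou5f1* was at 465 CPM (UMIs per 1000000), *Dppa3* at 1955 CPM and *Dppa2* at 17.6 CPM there. Conversely, 6 germ-like cells had fewer than 5 marker UMIs per 10000, and 5 of these had no UMI of any of the 10 genes.

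All 10 pluripotency genes were detected in germ-like cells, from 29 UMIs of *Tdgf1* to 18913 of *Dppa3*. Levels are UMIs of a gene per 1000000 UMIs of the class (CPM) with exact 95% Poisson intervals, which cover counting error only. Because each UMI is 1 molecule tagged at its 3 prime end, they were not divided by gene length. *Dppa3*, whose product STELLA shields DNA methylation in the early embryo, was the highest at 2139 CPM (2109 to 2170). *Dppa5a*, which encodes an RNA-binding KH-domain protein, followed at 1420.45 CPM (1396 to 1446).

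*Dppa4*, encoding a nuclear DNA-binding protein, *Utf1*, encoding a chromatin-bound factor of embryonic stem cells, and *Pou5f1* formed a middle group. *Dppa4* reached 555 CPM (539.98 to 571), *Utf1* 523 CPM (508 to 538) and *Pou5f1* 480.4 CPM (466 to 495). The intervals of *Dppa4* and *Utf1* did not overlap, nor did those of *Utf1* and *Pou5f1*, although no spread between samples stands behind this order.

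The partners of *Pou5f1* in the core circuit were lower. *Sox2* was at 62.3 CPM (57.2 to 67.7) and *Nanog* at 22.4 CPM (19.4 to 25.7), from 551 and 198 UMIs against 4248 of *Pou5f1*. *Zfp42*, whose product REX1 is a zinc-finger protein much used as a marker of stem cells, was at 50.9 CPM (46.3 to 55.8). *Dppa2*, the partner of *Dppa4*, was at 23.5 CPM (20.4 to 26.9), and its interval overlapped that of *Nanog*. Neighbours on a chromosome thus differed in level, with *Dppa3* far above *Nanog* and *Dppa4* far above *Dppa2*. *Tdgf1* was the lowest, with 29 UMIs in 23 of the 257 cells, or 3.28 CPM (2.20 to 4.71).

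**Figure D1:**
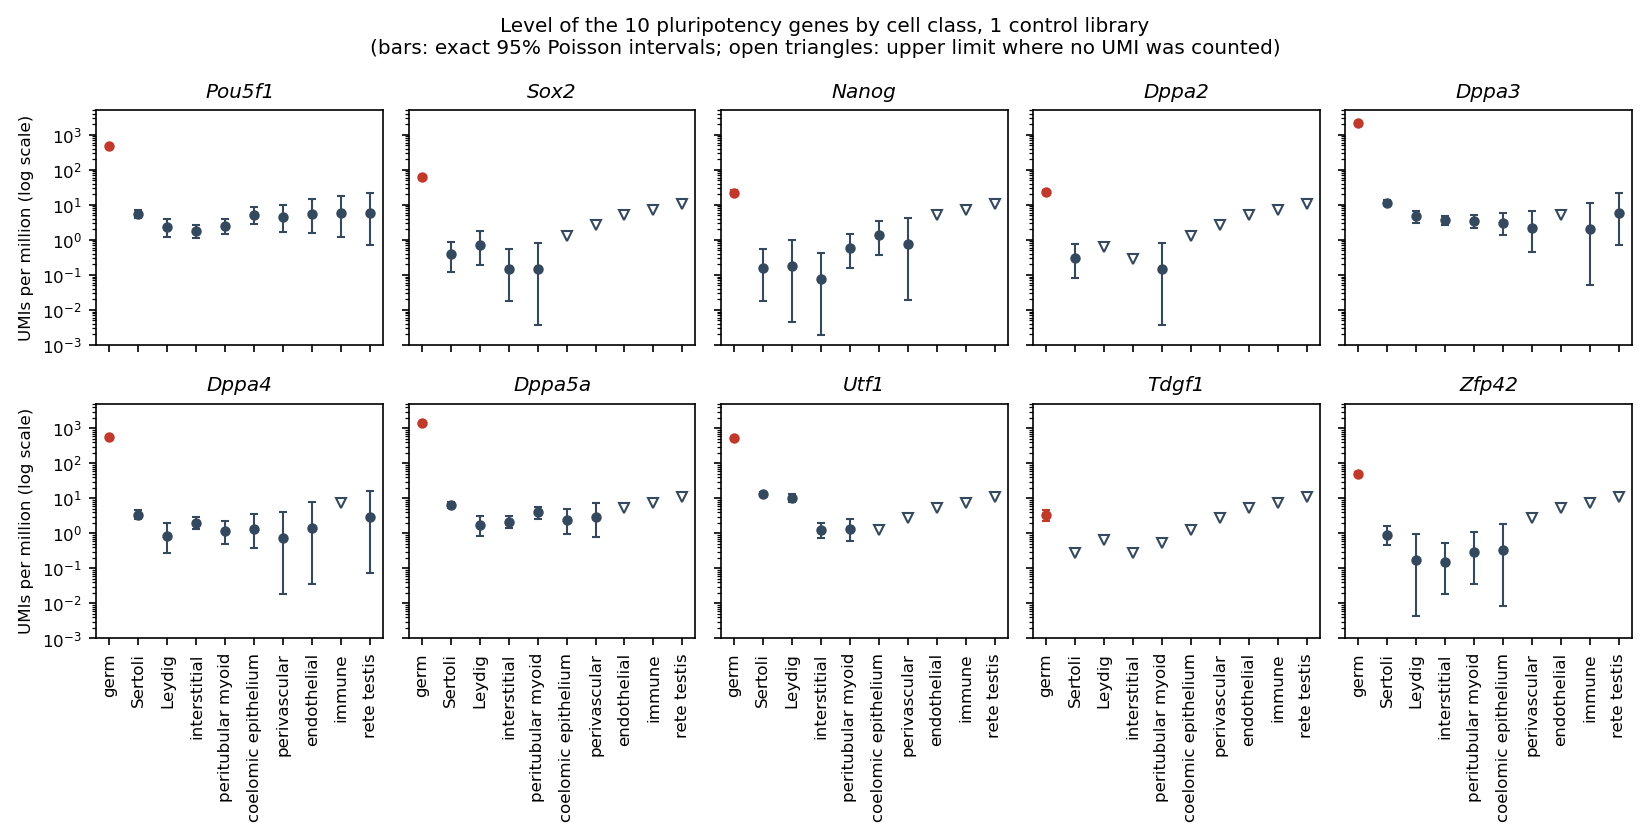
Level of each pluripotency gene (UMIs per 1000000, log axis) in germ-like cells (red) and 9 other named cell classes (dark) of the control library, with exact 95% Poisson intervals and open triangles at the upper limit where no UMI was counted. Germ-like cells have the highest measured level in each panel, from 3.28 for *Tdgf1* to 2139 for *Dppa3*.

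Shares of cells with at least 1 UMI followed these levels. As read, a UMI was present in 97.7% of germ-like cells for *Dppa3*, 97.3% for both *Dppa5a* and *Utf1*, 96.9% for *Pou5f1* and 94.6% for *Dppa4*. It was present in 79.4% (exact binomial 95% interval 73.9 to 84.2%) for *Sox2*, 72.8% for *Zfp42*, 52.1% for *Dppa2*, 48.2% (42.0 to 54.5%) for *Nanog* and 8.95% for *Tdgf1*. The cells counted include the 5 germ-like cells with no UMI of any of the 10 genes, all with under 5 marker UMIs per 10000. Germ-like cells were deeper than the rest, so each cell was also thinned to 5000 UMIs, which left out 6 germ-like cells. At that depth the share was 97.6% for *Dppa3*, 97.2% for *Dppa5a*, 92.4% for *Utf1*, 88.0% for *Pou5f1*, 86.9% for *Dppa4*, 27.9% for *Sox2*, 19.1% for *Zfp42*, 10.8% for *Nanog*, 10.4% for *Dppa2* and 1.59% for *Tdgf1*. The shares of the low genes depended on depth to this extent, and a cell without a UMI of *Nanog* or *Sox2* is not shown to lack the transcript.

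Germ-like cells stood apart from all other cells for these genes. Of the 10 genes, 9 reached the minimum of 30 UMIs over all kept cells, and all 9 were at least 10-fold higher in germ-like cells, as were 4.11% of the 13883 genes tested. *Sox2* (12 UMIs in the other cells), *Nanog* (13), *Dppa2* (5) and *Zfp42* (18) passed the minimum only through their germ-like UMIs, which favours a high ratio. *Dppa5a* showed a ratio of 395 (exact 95% interval 339 to 464), with 12560 UMIs in germ-like and 164 in the other cells. *Dppa3* had a ratio of 366 (324 to 414). The smallest ratios were those of *Nanog*, at 78.6 (44.9 to 150.2) from 198 and 13 UMIs, and *Utf1*, at 91.1 (80.4 to 103.5) from 4623 and 262 UMIs. *Tdgf1*, 1 UMI under the minimum, had none in the 3555 other cells, which allows 0.0844% of them to bear one at the limit of 3 counts (exact 95% upper bound 0.104%). The median ratio of the 9 genes was 215, which was that of *Dppa2* (exact 95% interval 90.5 to 668), with its 5 UMIs in the other cells. The median ratio of the 9 germ cell markers was 70.4.

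A wider list of 24 genes of the pluripotency network was less uniform. All 24 were seen in germ-like cells and 22 reached the minimum, toward which germ-like UMIs again counted. Of these 22, 16 were at least 10-fold higher in germ-like cells (median ratio 38.6), beside 4.11% of all genes tested. The highest of the 16 in level were *Sall4*, a zinc-finger partner of OCT4, at 114 CPM, *Trim71*, an RNA-binding ubiquitin ligase, at 87.9 CPM, and *Tcl1*, a co-activator of AKT, at 69.3 CPM. *Fbxo15*, a known target of OCT4 and SOX2, was at 44.8 CPM and *L1td1*, an RNA-binding protein derived from a transposon, at 37.0 CPM. The 6 genes tested that did not reach 10-fold were *Klf2*, *Klf4*, *Tbx3*, *Dnmt3b*, *Mycn* and *Tet1*, and the ratio was under 1 for *Klf4* (0.738, 0.583 to 0.926), *Dnmt3b* (0.621, 0.447 to 0.845) and *Tbx3*, which had 2 UMIs in germ-like cells (0.0403, 0.00486 to 0.147). Of the NODAL pathway, the ligand *Nodal* (12.3 CPM) and the antagonist *Lefty1* (53.0 CPM) were at least 10-fold higher in germ-like cells. Their ratios were 93.8 (41.7 to 261) and 14.2 (11.9 to 17.0). *Nodal*, with 6 UMIs in the other cells, passed the minimum only through its germ-like UMIs. The antagonist *Lefty2* (22.6 CPM) had a ratio of 1.29. The receptors *Acvr1b* (0.639), *Acvr2a* (0.726) and *Acvr2b* (1.14) and the signal transducers *Smad2* (1.06) and *Smad3* (0.0900) did not reach 10-fold.

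Next, the spread of each gene from cell to cell was measured in the 232 germ-like cells with at least 15000 UMIs, each thinned to that number, which left out 25 cells. The Fano factor is the variance divided by the mean and is 1 for a Poisson count, and the squared coefficient of variation (CV) less its Poisson part is then 0. Over the 3832 genes with a mean of at least 0.5 UMI per cell, the median Fano factor was 1.13 and the median excess of the squared CV was 0.0846. At this depth *Pou5f1* varied no more than a Poisson count, with a median of 7 UMIs per cell (10th to 90th percentile 4 to 11, highest 14) and a Fano factor of 0.999. Only 16.2% of the genes had a lower excess. The excess of *Pou5f1* was over 0 at other depths, at 0.0383 with 10000 and 0.0241 with 25000 UMIs per cell. Without the cells of few marker UMIs, the Fano factor of *Pou5f1* at 15000 UMIs was 0.935 over 230 cells.

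*Dppa5a* varied most among the 5 abundant genes. Its median was 19 UMIs per cell, the 10th and 90th percentiles were 8.1 and 36.9, and the highest cell had 70 UMIs, with a Fano factor of 7.02 and an excess of 0.282, above that of 86.2% of the genes. *Dppa4* had a median of 7 UMIs (2 to 14, highest 25), a Fano factor of 2.74 and an excess of 0.215, above that of 79.0% of the genes. *Pou5f1* and *Dppa4* thus had the same median in these cells, and *Dppa4* had more cells in both tails. Within the 2 finer germ-like clusters described below (Epcam-led, then Gtsf1-led), the excess of *Dppa4* was 0.225 and 0.0379. That of *Dppa5a* was 0.178 and 0.170.

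*Dppa3* and *Utf1* lay between them. *Dppa3* had a median of 33 UMIs (21 to 46, highest 65) and a Fano factor of 3.09, but an excess of 0.0639, since the Fano factor grows with the mean. *Utf1* had a median of 7 UMIs (3.1 to 12, highest 20) and an excess of 0.0571. The excess of these genes was below that of the median gene.

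The low genes gave little information on spread. *Sox2* (excess 0.281) and *Zfp42* (0.398) had means of 0.927 and 0.772 UMI per cell, and the excess of *Zfp42* went from -0.154 at 10000 UMIs per cell to 0.206 at 25000. *Nanog*, *Dppa2* and *Tdgf1* had means under 0.5 UMI. *Nanog* was at 0 in 69.0% of cells, as a Poisson count of the same mean would be in 69.0%, and for *Dppa2* these shares were 68.5 and 68.4%. At 25000 UMIs per cell, where both means passed 0.5, the excess was 0.0968 for *Nanog* and 0.309 for *Dppa2*. Since a Poisson count is itself at 0 in 69.0% of cells at 15000 UMIs, a separate class of *Nanog*-negative germ cells could be neither seen nor excluded.

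**Figure D2:**
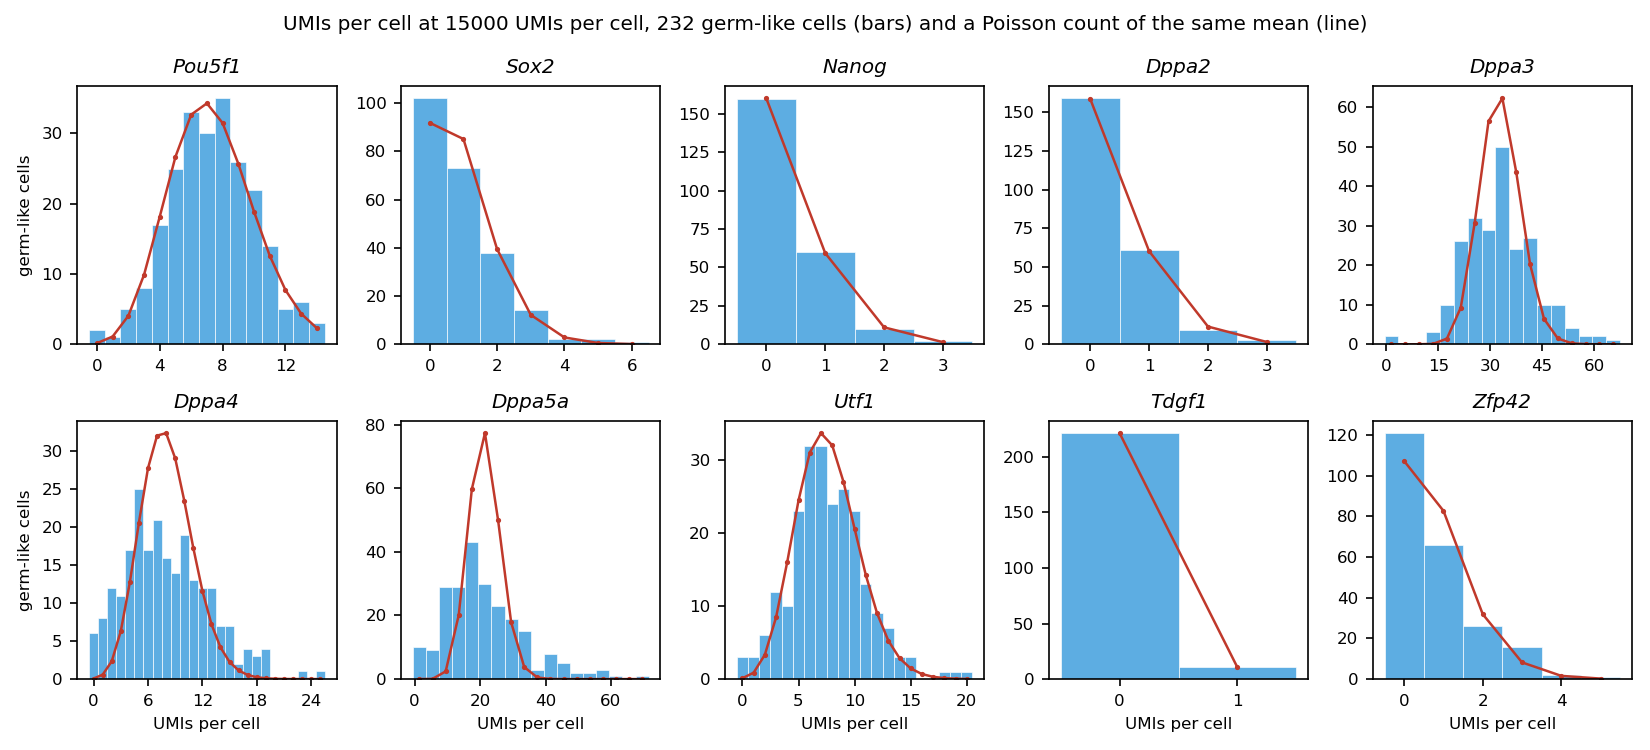
UMIs per cell of each pluripotency gene (x axis) in the 232 germ-like cells thinned to 15000 UMIs (number of cells on the y axis, bars), with the numbers a Poisson count of the same mean gives (red line). The bars of *Pou5f1* follow the line (Fano factor 0.999), and those of *Dppa5a* (7.02) and *Dppa4* (2.74) are wider than it.

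**Figure D3:**
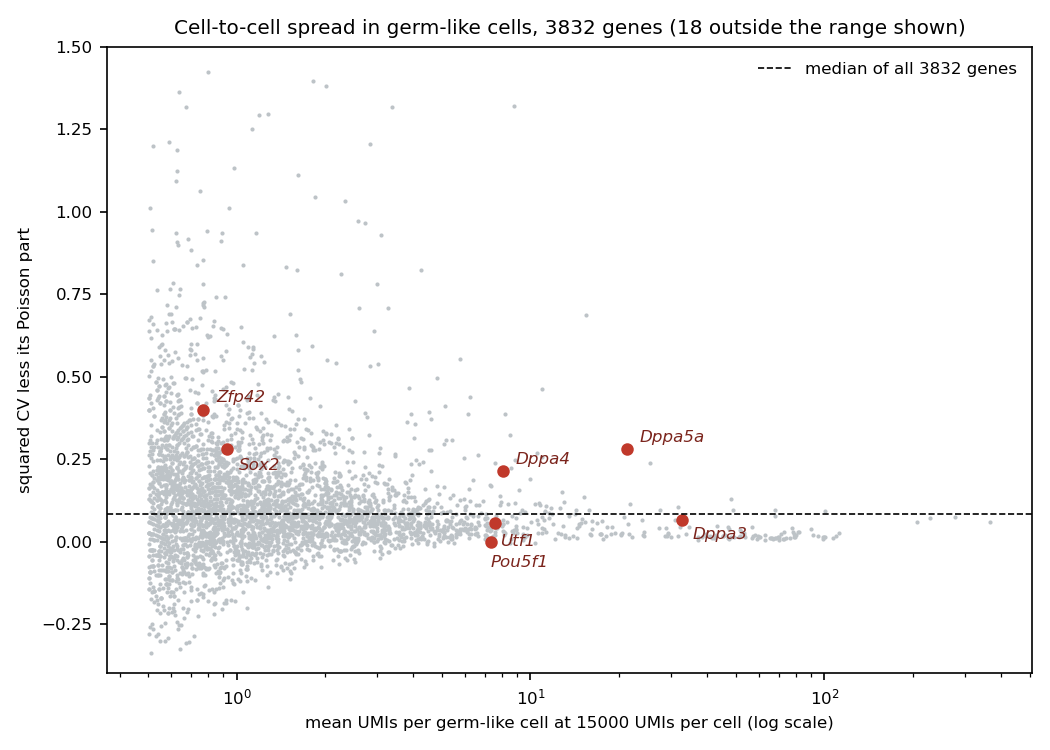
Squared CV less its Poisson part (y axis) against mean UMIs per cell (log x axis) for 3832 genes in 232 germ-like cells (grey), with the 7 pluripotency genes over the minimum mean in red, the median of all genes as a dashed line and 18 genes outside the range shown. *Dppa5a* (0.282) and *Dppa4* (0.215) lie over the median of all genes (0.0846), and *Pou5f1* lies at 0.

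At a finer clustering (resolution 1.2 in place of 0.8) germ-like cells fell into 2 clusters, whose comparison was chosen after the values were seen and carries no test. This split was not found when doublets were kept or removed at 2 times the rate. Scores of the S and G2/M phases had been regressed out of the values that were clustered. One cluster, of 161 cells (median 33421 UMIs), was led by genes that include *Epcam*, an adhesion molecule of early germ cells, and the other, of 96 cells (median 39643 UMIs), by *Gtsf1*, a piRNA pathway gene. *Dppa5a* and *Dppa3* were themselves among the leading genes of the former and *Dppa4* among those of the latter, although none of the 3 was used for clustering. Leading genes were ranked against all other kept cells, not against the other germ-like cluster. *Dppa3* was not lower in the Gtsf1-led cluster (2036 CPM in the Epcam-led and 2280 CPM in the Gtsf1-led cluster). The Epcam-led cluster held all 6 cells with few marker UMIs. *Mki67*, a gene of dividing cells, was at 64.3 CPM in the Epcam-led and 6.15 CPM in the Gtsf1-led cluster. *Top2a*, another such gene, was at 239 and 124 CPM, and the genes of the S and G2/M phases summed to means of 141 and 102 UMIs per cell at 15000 UMIs. Phase calls put 56.5% of Epcam-led and 76.0% of Gtsf1-led cells in G2/M, and 23.6% and 4.17% in S. These calls came from scores over all kept cells, other cell types included. Their higher G2/M share in the Gtsf1-led cluster runs opposite to *Mki67*, *Top2a* and the summed genes, so they do not show that these cells were dividing. The part of proliferation in the differences that follow was not tested, and the embryonic day and animal of the cells cannot be told apart from the clusters.

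The pluripotency genes differed in direction between the 2 clusters. Of the 9 with at least 30 UMIs, 3 were at least 1.5-fold lower in the Gtsf1-led cluster, 1 was at least 1.5-fold higher and 5 lay within 1.5-fold, beside 15.7% lower and 16.8% higher among 9816 genes. The median log2 ratio of Gtsf1-led to Epcam-led was -0.35 for the 9 genes and 0.03 for all genes tested.

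*Dppa5a* was at 1756 CPM (1720.2 to 1793) in the Epcam-led and 962 CPM (931 to 994) in the Gtsf1-led cluster, a log2 ratio of -0.87. *Dppa4* differed the other way, with 407 CPM (389 to 425) and 758 CPM (731 to 787), a log2 ratio of 0.90. The intervals of the clusters were far apart for both genes. *Sox2* was at 75.8 and 43.9 CPM and *Dppa2* at 29.6 and 15.2 CPM, so that *Dppa2* and its neighbour *Dppa4* differed in opposite directions. *Nanog*, at 26.1 and 17.4 CPM with overlapping intervals (21.8 to 30.9 and 13.4 to 22.2), lay just inside the 1.5-fold limit at a log2 ratio of -0.58, and *Sox2*, at -0.79, was the nearest outside it. The ratio of *Nanog* itself was 0.667 with an interval of 0.488 to 0.904. Its log2 ratio was past the limit under alternatives, at -0.89 with an outlier limit of 5 deviations, -0.69 without the outlier filter and -0.75 on log-normalized values.

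*Pou5f1* (454 and 517 CPM), *Dppa3* (2036 and 2280 CPM) and *Utf1* (530.1 and 513 CPM) lay within 1.5-fold, at log2 ratios of 0.19, 0.16 and -0.05. *Zfp42* was at 56.0 and 43.9 CPM. Of the 29 UMIs of *Tdgf1*, 27 were in the Epcam-led cluster (5.29 CPM) and 2 in the Gtsf1-led one, a ratio of 0.101 with an interval of 0.0116 to 0.402.

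Genes of the listed pathways were split as well. Of the 21 network genes tested, 12 were at least 1.5-fold lower in the Gtsf1-led cluster, 3 higher and 6 within 1.5-fold (median log2 ratio -0.85). Among all genes tested, 15.7% were lower and 16.8% higher. *L1td1* was at 62.5 and 2.14 CPM (8 UMIs) and *Tet1*, a demethylating enzyme, at 106 and 29.7 CPM, whereas *Tfcp2l1*, a transcription factor of naive stem cells, was at 23.5 and 54.0 CPM. The NODAL antagonists *Lefty1* (91.5 and 0.535 CPM, the latter from 2 UMIs) and *Lefty2* (38.2 and 1.34 CPM, the latter from 5 UMIs) were over 1.5-fold lower in the Gtsf1-led cluster. *Nodal* itself was at 14.1 and 9.89 CPM, and *Acvr1b*, *Acvr2a*, *Acvr2b* and *Smad2* lay within 1.5-fold.

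In contrast, 4 of the 5 genes of the male germ cell list were at least 1.5-fold higher in the Gtsf1-led cluster, beside 16.8% of all genes tested. The remaining one, *Nanos2*, an RNA-binding factor of the male fate, was at 54.1 and 77.8 CPM. *Piwil4*, a piRNA-binding protein, was at 18.4 and 77.8 CPM, and *Dnmt3l*, a cofactor of DNA methylation, at 4.12 and 35.0 CPM. Of the 4 meiosis genes tested, 1 was higher, 1 lower and 2 within 1.5-fold, beside 16.8% higher and 15.7% lower among all genes tested. *Sycp3*, of the synaptonemal complex, was at 94.1 and 211 CPM, and *Rec8*, a meiotic cohesin, at 9.80 and 6.15 CPM. The ratio of *Rec8* was 0.628 with an interval of 0.366 to 1.05, which includes 1. *Stra8*, which starts meiosis, was at 4.12 and 4.01 CPM, and *Sycp1*, also of the synaptonemal complex, at 127 and 158 CPM.

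**Figure D4:**
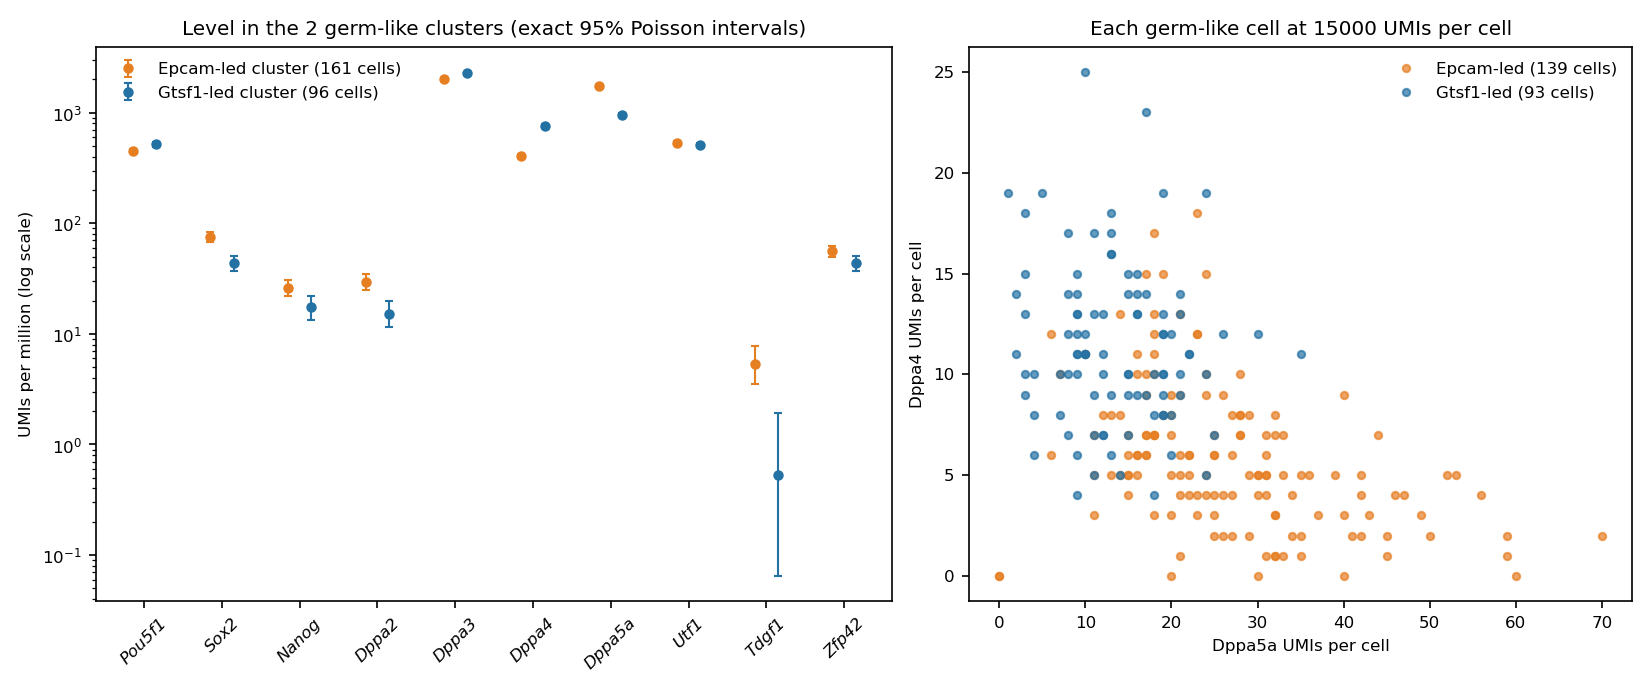
Left, level of each pluripotency gene (UMIs per 1000000, log axis) in the Epcam-led (orange, 161 cells) and Gtsf1-led (blue, 96 cells) germ-like clusters with exact 95% Poisson intervals. Right, *Dppa4* against *Dppa5a* UMIs per cell at 15000 UMIs in 139 Epcam-led and 93 Gtsf1-led cells, where cells rich in *Dppa5a* have few *Dppa4* UMIs.

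*Dppa4* and *Dppa5a* were also opposed from cell to cell. Across the 232 cells at 15000 UMIs, all of 1 library and of equal depth, the 45 pairs of the 10 genes had a median Spearman's rho of 0.052, and 39 pairs lay within 0.2 of 0. *Dppa4* and *Dppa5a* gave the most negative value, -0.545. It was -0.462 within the 139 Epcam-led cells and -0.106 within the 93 Gtsf1-led cells. Over the 230 cells left without those of few marker UMIs it was -0.585. The highest value was 0.294, between *Sox2* and *Dppa5a*, followed by 0.289 between *Dppa5a* and *Utf1*. In counts this sparse, values near 0 show nothing of a relation. Values of rho are descriptions with no p, since cells of 1 library are not replicates.

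Against the summed UMIs of the male germ cell list, *Dppa4* had a rho of 0.575 and *Dppa5a* one of -0.551 in these 232 cells. Against summed genes of the S and G2/M phases the values were -0.379 and 0.188. *Pou5f1* had 0.164 and -0.125, respectively. The genes most like the mean of the standardised log values of the 10 genes, among 3825 others, were *Tet1* (rho 0.315), *Rpl39* (0.314), *Tdh* (0.313), *Trim28* (0.310) and *Tnnt1* (0.303).

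Outside germ-like cells the 10 genes summed to 0.412% of their germ-like level. UMIs in cells that do not express a gene can come from free RNA in the droplets, so the level of each gene in a class is given as a percent of its germ-like level, beside the same for the 9 germ cell markers. In interstitial-like cells (1355 cells, median 9271 UMIs) the 8 pluripotency genes that were seen lay between 0.153% (*Dppa5a*) and 0.374% (*Pou5f1*), and *Dppa2* and *Tdgf1* had no UMI. The 9 markers ranged from 0.224 to 2.34% there.

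*Utf1* had the most UMIs of the 10 genes in Sertoli-like and Leydig-like cells. In 920 Sertoli-like cells (median 14060.5 UMIs), which nurse the germ cells in the cords, it had 176 UMIs in 136 cells, 13.5 CPM (11.6 to 15.6) or 2.58% (2.21 to 3.00%) of its germ-like level. In 314 Leydig-like cells (median 16087 UMIs), a class named for the androgen producers outside the cords, it had 60 UMIs in 50 cells, 10.4 CPM or 2.0% (1.52 to 2.57%). This class joined 2 clusters. In 184 cells led by *Nppc* and *Vsnl1* (mean log2 marker ratio 1.73), *Utf1* was at 12.7 CPM (8.69 to 17.9, 32 UMIs). It was at 8.66 CPM (5.75 to 12.5, 28 UMIs) in 130 cells led by genes that include *Cyp11a1* and *Star* (ratio 4.88). In contrast, *Dppa3* was at 0.530% (0.448 to 0.623%) in Sertoli-like and 0.219% (0.145 to 0.319%) in Leydig-like cells. Low genes had wide intervals that reached the value of *Utf1*, as for *Zfp42* in Sertoli-like cells (1.81%, 0.927 to 3.19%, from 12 UMIs) and *Sox2* in Leydig-like cells (1.12%, 0.303 to 2.87%, from 4 UMIs).

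*Utf1* was at 0.243% (0.142 to 0.390%) in interstitial-like cells and had no UMI in 154 coelomic epithelium-like cells, which allows 1.95% of them to bear one at the limit of 3 counts (exact 95% upper bound 2.37%). At 5000 UMIs per cell, 6.01% (4.51 to 7.83%) of 848 Sertoli-like and 4.50% (2.48 to 7.44%) of 311 Leydig-like cells had a *Utf1* UMI, against 0.698% (0.320 to 1.32%) of 1290 interstitial-like cells, and the intervals did not overlap. UMIs of *Utf1* and *Dppa3* stood at 4623 to 18913 in germ-like, 176 to 148 in Sertoli-like, 60 to 27 in Leydig-like and 17 to 49 in interstitial-like cells.

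Leaving out the 2 Sertoli-like cells with over 5 germ marker UMIs per 10000 gave 2.45% for *Utf1* and 0.473% for *Dppa3*. The values of *Utf1* were not outside those of the markers, which ranged from 0.582% (*Dazl*) to 4.16% (*Rnf17*) in Sertoli-like cells and from no UMI (*Tdrd9*) to 4.46% (*Dnd1*) in Leydig-like cells. The source of these UMIs was not tested. A cluster of 65 cells with a median of 3116 UMIs, led by the haemoglobin genes *Hba-a1*, *Hbb-bs* and *Hba-a2* and named Sertoli-like at a mean log2 marker ratio of 1.02 (limit 1), had 39.6 CPM of *Utf1* from 10 UMIs in 3 cells, and the main Sertoli-like cluster, with 855 cells, had 13.0 CPM. This was not particular to *Utf1*. *Dppa3* was at 63.4 CPM in the small cluster, from 16 UMIs in 2 cells, and at 10.3 CPM in the main one. *Dppa5a* was at 35.7 CPM (9 UMIs in 1 cell) and 5.94 CPM, and *Pou5f1* at 15.8 CPM (4 UMIs in 2 cells) and 5.31 CPM. *Nanog* had no UMI in the small cluster.

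*Pou5f1* was at 1.15% (0.897 to 1.45%) in Sertoli-like and 1.07% (0.600 to 1.77%) in coelomic epithelium-like cells. The values of *Nanog* outside germ-like cells rested on 13 UMIs in all, of which 4 fell in coelomic epithelium-like cells (6.14%, 1.66 to 16.0%) and 4 in peritubular myoid-like cells (2.63%, 0.708 to 6.83%).

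**Figure D5:**
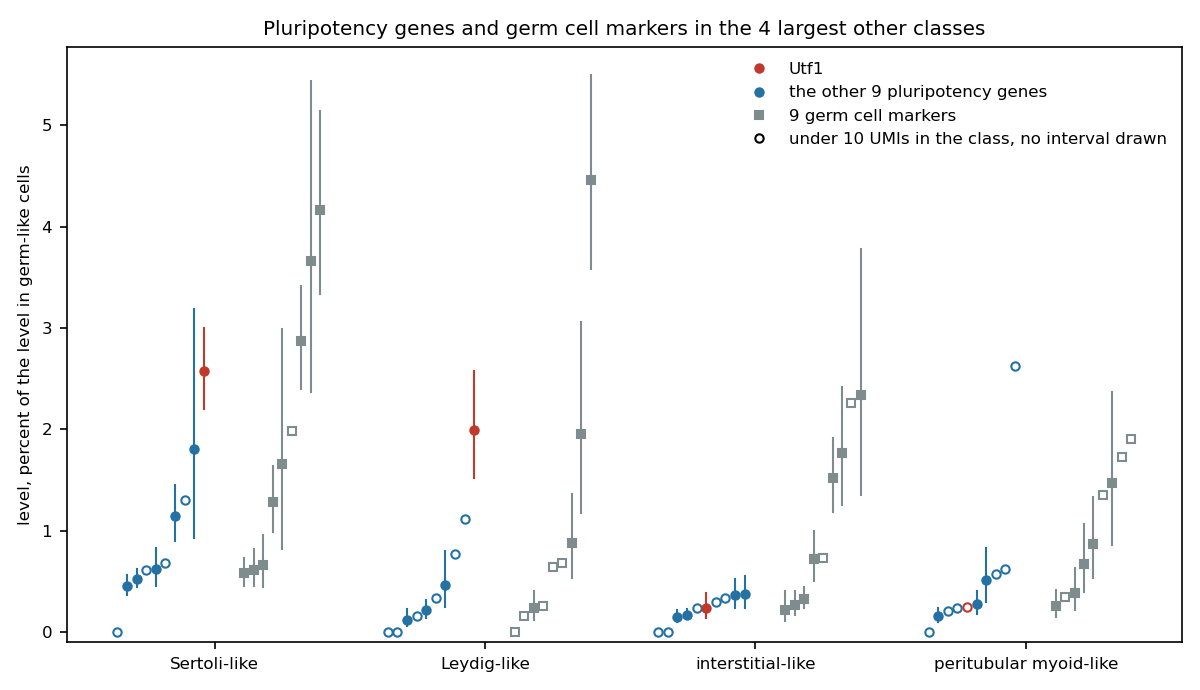
Level in the 4 largest other cell classes as a percent of the level in germ-like cells (y axis), for *Utf1* (red), the other 9 pluripotency genes (blue) and 9 germ cell markers (grey squares), with exact 95% intervals where a gene had at least 10 UMIs in the class and open symbols otherwise. *Utf1* is the highest pluripotency gene in Sertoli-like (2.58%) and Leydig-like cells (2.0%) and lies among the others in interstitial-like cells (0.243%).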

How the data were processed

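The authors processed the reads with Cell Ranger (versions 3.0.2 and 3.1.0 in the submitters' processing notes, 3.1.0 in the header of the matrix, and another in the methods) on mm10 and deposited UMI counts per gene and barcode, without normalization. Counts were used as deposited. Barcodes with under 200 genes, the 4.04% with most artificial doublets among their neighbours and cells beyond 3 median absolute deviations were removed. Cells were clustered with Seurat 5.3.0 and sctransform 0.4.2 in R 4.3.3 (3000 variable genes without the 10 genes and the listed genes, 30 components, resolution 0.8). Scores of the S and G2/M phases and the mitochondrial share were regressed out before clustering. Clusters were named from marker lists, at a mean log2 ratio of at least 1, a limit set after clusters had been seen. Counts were summed, thinned and compared in Python 3.11.15 (scipy 1.17.1, numpy 2.4.6, pandas 2.3.3), with functions tested on simulated data. Alternatives changed the outlier limit, the doublet step, the clustering and the thinning depth.

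The genes and lists were chosen with earlier results of these data known. Named were the 10 genes, the 5 network genes highest in level among those called, the NODAL ligand and its antagonists, genes of the male and meiosis lists, and the 5 genes most alike. Other genes were named after their values were seen. One gene of the lists is not reported here. A count of 0 was given the limit of 3 counts. Shares used exact Clopper-Pearson intervals at 95%. No test was made with 1 library.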

Additional observations from a re-analysis of the deposited data

Results flagged for a closer look

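Data outside the comparisons held UMIs of 2 of the genes above the limit that a count of 0 allows (3 counts). The 372 barcodes with under 200 genes entered no comparison and had a median of 3304 UMIs. In them, *Dppa5a* had 12 UMIs in 12 barcodes, 8.51 CPM (exact 95% Poisson interval 4.40 to 14.9), or 0.599% (0.310 to 1.05%) of its germ-like level. *Dppa3* had 6 UMIs in 6 barcodes, 4.26 CPM (1.56 to 9.26), or 0.199% (0.0730 to 0.433%). The other 8 genes had at most 3 UMIs each there. Over the same barcodes the 9 germ cell markers summed to 0.361% (0.202 to 0.595%) of their germ-like level. The source of these UMIs was not tested.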

How the results depend on the processing

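No paired analysis was possible because there was 1 sample. Of 341 values under alternatives, 8 of the main values and 31 of the others moved by more than their counting interval or limit. The level outside germ-like cells, 0.412% as reported, was 0.574% with an outlier limit of 5 deviations, 0.638% without the outlier filter and 0.378% with each cell classed by itself. The median share of germ-like cells with a UMI was 57.4% at 5000 and 44.9% at 3000 UMIs per cell. The share for *Dppa3* at 5000 UMIs, 97.6% as reported, was 100% without the outlier filter. The median excess of the squared CV, 0.215, was 0.0852 at 10000 UMIs per cell and, as an alternative chosen after seeing the data, 0.0815 within the Gtsf1-led cluster. The rho of *Dppa4* with *Dppa5a*, -0.545, was -0.397 at 10000 UMIs per cell, -0.626 at 25000 and -0.106 within the Gtsf1-led cluster. The cause was not tested. Germ-like cells numbered 231 to 296, and the largest change in a gene's level was 6.36%, *Tdgf1* aside. A split into Epcam-led and Gtsf1-led cells, 161 and 96 as reported, was 98 and 197 at 5 deviations, 142 and 148 without the outlier filter, 129 and 122 on log-normalized values and 162 and 94 with the 10 genes kept in the clustering, where 5 or 6 genes passed 1.5-fold in place of 4, and did not appear in the 2 alternatives of the doublet step. Across these clusterings and without the 6 cells of few markers, 44 of 45 log2 ratios kept their sign. The exception was *Dppa3*, at 0.16 as reported and -0.0035 without the outlier filter. Depth limits *Nanog*, *Dppa2* and *Tdgf1*, with under 0.5 UMI per cell at 15000.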
